A study of Mus musculus with 123 samples.

Results

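The transcripts of 10 antioxidant enzyme genes were followed in single mouse heart cells from mid-gestation to postnatal day 1 (P1). The genes were chosen by name: Gpx1, Gpx3, Gpx4, Sod1, Sod2, Cat, Prdx1, Prdx3, Prdx5 and Txn2. All 10 were found among the 23337 gene symbols measured. The cells came from hearts of αMHC-GFP mice, in which the promoter of the cardiomyocyte myosin gene Myh6 drives the fluorescent protein, and were sorted for GFP and amplified singly on microfluidic chips. The labels give the strain as aMHC-GFP at every stage, and no other allele or treatment. Embryonic hearts at E9.5 (42 cells) and E12.5 (29 cells) were dissociated with collagenase, and neonatal hearts (P1, 52 cells) with Liberase, so stage and dissociation cannot be told apart.

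Cells with 2000 or more genes detected were kept, which left 42, 29 and 41 cells and removed 11, all of P1. Total counts per kept cell had a median of 2476020 in E9.5 cells, 493238 in E12.5 cells and 149078 in P1 cells. No animal, litter or chip is named for any cell, so each stage stands as 1 sample and no test between stages was possible. The cell titles fall into naming sets (C with 14 cells and N530 with 28 cells at E9.5, C with 20, N523 with 8 and E12-5b with 1 at E12.5, and C for every P1 cell), which differ in depth: the E9.5 cells had median totals of 415428 counts in set C and 3151950 in set N530. Genes encoding 12 cardiomyocyte proteins were checked, and 8 or more of them had counts in 39 of the 42 E9.5 cells, in all 29 E12.5 cells and in all 41 P1 cells. Among P1 cells, 1 carried endothelial markers at a summed 7998 CPM (counts scaled to a total of 1000000 in each cell) with Myl2 at 0, and 1 carried macrophage markers at 636 CPM, while the 7 measured erythroid markers were at 0 in every P1 cell.

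As background, superoxide leaks from the respiratory chain and is turned into hydrogen peroxide by the superoxide dismutases, SOD1 in the cytosol and SOD2 in the mitochondrial matrix. Hydrogen peroxide is then removed by catalase in peroxisomes, by glutathione peroxidases and by the peroxiredoxins, which draw electrons from thioredoxin. GPX1, GPX3 and GPX4 are selenoproteins. Cardiomyocytes turn from glycolysis to mitochondrial oxidation around birth, when oxygen tension rises, and these enzymes are counted among the defences of that transition.

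For each of the 10 genes RefSeq promoters of 300 bases were searched, 1 window a gene except for Gpx4 with 4, 250 before and 50 after the annotated start in GRCm38.p6. The antioxidant response element, bound by NRF2 and written TGACNNNGC, was looked for on both strands. It was present for 2 of the 10 genes, Sod1 and Prdx1, and for 14.0% of the 27025 genes with a promoter. A core of the site of NRF-1, a factor of nuclear genes for mitochondria (GCGCANGCG), was found for Gpx4 alone, in 2 of its 4 windows, against 7.03% of all genes, and the half-site of the estrogen-related receptors (TNAAGGTCA) for none, against 1.43%. The 2 Gpx4 windows with the NRF-1 core overlap and hold the same site. All these matches describe the letters of the window and show no binding. The 250 bases upstream are shown for Sod1 and Prdx1, which hold the NRF2 element (capitals, read on the minus strand), and for Gpx3, whose level differed most between P1 cells and which holds none of the 3 motifs.
Sod1 (chr16:90220512-90220761, plus strand): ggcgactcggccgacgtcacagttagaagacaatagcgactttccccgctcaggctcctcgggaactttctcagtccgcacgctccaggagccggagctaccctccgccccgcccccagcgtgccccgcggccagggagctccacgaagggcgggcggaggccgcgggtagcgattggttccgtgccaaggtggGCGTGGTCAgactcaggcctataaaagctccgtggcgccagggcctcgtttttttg
Prdx1 (chr4:116685349-116685598, plus strand): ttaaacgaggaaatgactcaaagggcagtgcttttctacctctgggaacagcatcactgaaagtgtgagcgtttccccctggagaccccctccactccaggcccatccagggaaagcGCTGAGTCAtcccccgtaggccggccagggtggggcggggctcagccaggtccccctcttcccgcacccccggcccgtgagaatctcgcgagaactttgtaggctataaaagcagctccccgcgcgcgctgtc
Gpx3 (chr11:54902604-54902853, plus strand): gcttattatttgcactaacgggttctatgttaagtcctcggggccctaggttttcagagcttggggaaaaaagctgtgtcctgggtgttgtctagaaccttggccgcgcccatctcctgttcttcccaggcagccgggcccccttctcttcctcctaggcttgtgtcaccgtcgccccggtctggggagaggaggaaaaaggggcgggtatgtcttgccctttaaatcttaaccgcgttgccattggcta

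Gpx3 was the member with the largest decline at P1 in pooled level. It encodes the secreted plasma form of glutathione peroxidase and lies at chr11:54902854-54910387. In cells of E9.5 it ranged from 29.2 to 6867 CPM with a median of 1912, and at E12.5 from 58.9 to 4989 CPM with a median of 922. P1 cells ranged from 0 to 5898 CPM, and their median was 56.5. It had counts in 42 of 42 cells, 29 of 29 cells and 27 of 41 cells (65.9%, 95% exact binomial interval 49.4 to 79.9). The highest P1 cells thus lay within the E9.5 range, while 14 of the P1 cells had no count. Counts summed over the cells of a stage, divided by their summed totals (pooled CPM), were 2406 for E9.5, 2116 for E12.5 and 698 for P1, with exact Poisson limits of 679 and 718 for P1. All these intervals cover counting error only, since amplified reads are not independent molecules. The pooled level was 3.45-fold lower at P1 than at E9.5 (log2 ratio -1.78, counting interval -1.83 to -1.74) and 3.03-fold lower than at E12.5 (log2 ratio -1.60). Over the naming sets the log2 ratio ranged from -1.81 to -1.36 against E9.5 and from -1.73 to -0.71 against E12.5, and within set C it was -1.36 and -0.71.

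A gene was counted as higher or lower where the pooled level differed by 2-fold or more and had the same sign in every combination of naming sets, among the 7971 genes with a mean pooled level of 10 CPM or more over the 3 stages. All 10 members passed that minimum. Between P1 and E9.5, 4 members were higher at P1 (Sod2, Prdx3, Prdx5 and Txn2) where 16% of all genes were, and 2 were lower (Gpx1 and Gpx3) where 34% of all genes were. All 4 of the higher members encode proteins that act in mitochondria, PRDX5 also outside them. The 4 members that met neither limit were Gpx4, Sod1, Cat and Prdx1, with log2 ratios of 0.24, 0.23, 0.70 and 0.02. The median log2 ratio was 0.47 over the members and -0.54 over all genes tested. With trimmed-mean (TMM) scaling the median of all genes became -0.36, the same 4 members were higher, and Gpx1, at a log2 ratio of -0.96, was no longer counted as lower.

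**Figure D1:**
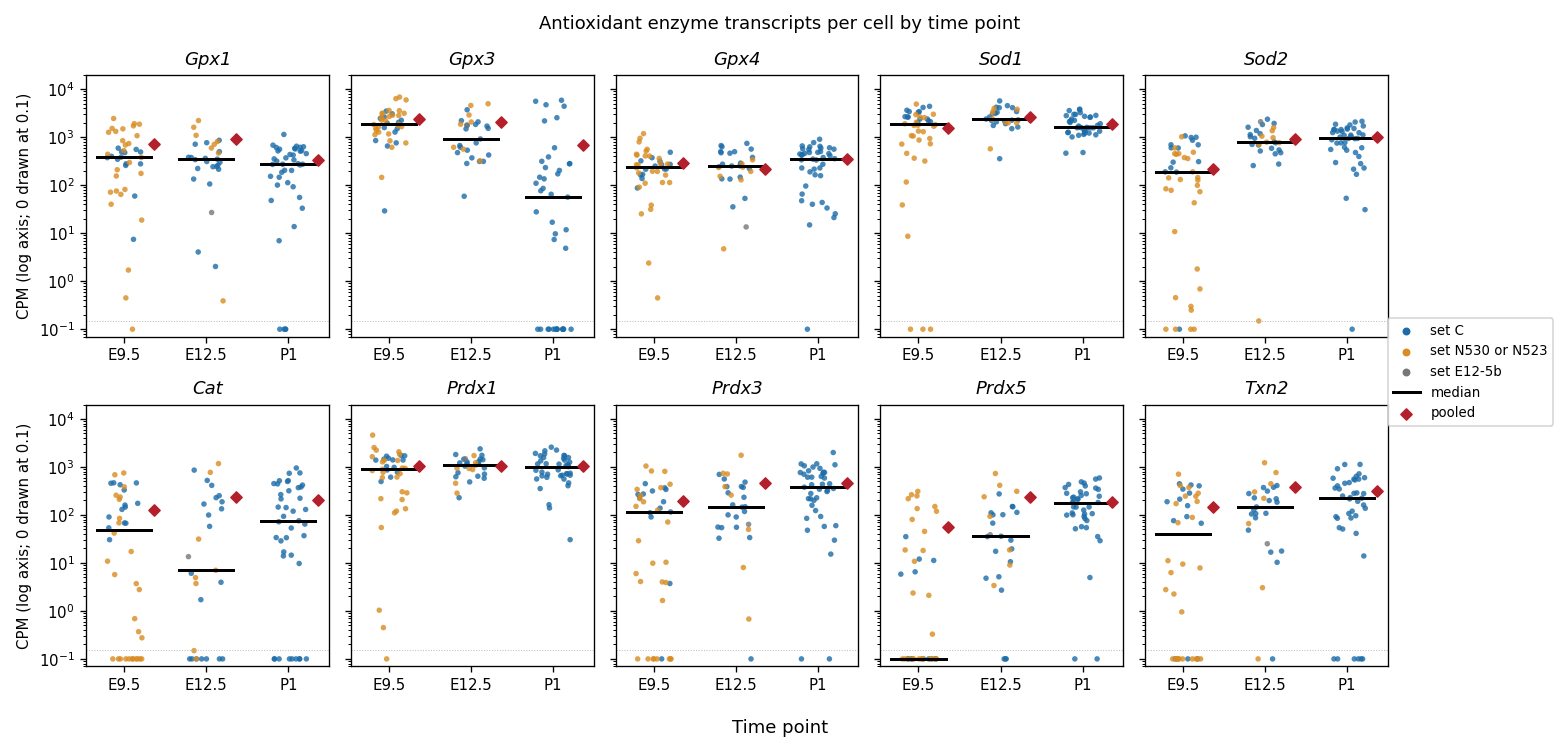
CPM of each gene in each kept cell (log axis, cells at 0 drawn at 0.1) for 42 cells of E9.5, 29 of E12.5 and 41 of P1, coloured by naming set, with the median over cells (bar) and the pooled level (diamond). The Gpx3 median went from 1912 CPM at E9.5 to 56.5 at P1 while the highest P1 cell was at 5898 CPM, and the Prdx5 median went from 0 to 182 CPM.

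Sod2, the manganese dismutase of the mitochondrial matrix (chr17:13007839-13018119), was among the 4 members with higher levels at P1. At E9.5 it ranged from 0 to 1069 CPM with a median of 189, at E12.5 from 0.149 to 2377 with a median of 801, and at P1 from 0 to 2152 with a median of 946. The stages overlapped, but most cells of E12.5 and P1 lay above the E9.5 median. Pooled levels were 219, 911 and 1032 CPM. P1 was 4.71-fold above E9.5 (log2 ratio 2.24, over naming sets 0.87 to 2.38) and 1.13-fold above E12.5 (0.18, over naming sets 0.09 to 0.22). Within E9.5 the 2 naming sets stood apart, with pooled levels of 564 CPM in set C and 199 CPM in set N530, and the ratio of P1 to set C alone stayed under 2-fold. Of the 75-base stretches (the read length) in its annotated transcripts, 12.4% were shared with Rps6ka2 and 12.9% with AC166110.4. Reads there can be ambiguous.

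Prdx3, the peroxiredoxin that is found only in mitochondria (chr19:60864066-60874538), had cell medians of 113, 148 and 379 CPM, with ranges of 0 to 1044, 0 to 1752 and 0 to 1998. It was detected in 78.6%, 96.6% and 95.1% of cells. Pooled levels were 199, 466 and 469 CPM, giving a P1 level 2.36-fold above E9.5 (log2 ratio 1.24) with little spread over naming sets (1.07 to 1.25). A single set N523 cell held 38.2% of the E12.5 counts, and without it the E12.5 level was 321 CPM. By naming set the E12.5 level was 240.3 CPM in set C and 516 CPM in set N523, so the log2 ratio of P1 to E12.5 was 0.96 within set C and -0.14 against set N523. The cell median was highest at P1.

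Prdx5, a peroxiredoxin of mitochondria, peroxisomes and cytosol (chr19:6906697-6910106), was the member whose detection changed most. It was found in 20 of 42 E9.5 cells (47.6%, interval 32 to 63.6), in 26 of 29 E12.5 cells (89.7%, interval 72.6 to 97.8) and in 39 of 41 P1 cells (95.1%, interval 83.5 to 99.4), although P1 cells had the lowest depth. After each cell was thinned to 100000 counts the shares were 33.3%, 75.9% and 94.7%, the last over the 38 P1 cells deep enough. Cell medians were 0, 35.98 and 182 CPM, with highest cells at 309.8, 729 and 589 CPM. Pooled levels were 57.2, 240.3 and 186 CPM, and P1 was 3.24-fold above E9.5 (log2 ratio 1.70). Set C at E9.5 held only 27 counts over 14 cells (4.83 CPM), and against it the log2 ratio of P1 was 5.26. At E12.5 the set C level was 59.1 CPM and the set N523 level 278 CPM, of which 1 cell gave 42.2%, so P1 lay above set C (log2 ratio 1.65) and below set N523 (-0.58). Exons of Trmt112 on the opposite strand share 409 bases with those of Prdx5, and as the counting is not stated to use strand, reads there cannot be told apart. Trmt112 itself had pooled levels of 28.4, 32.3 and 17.4 CPM.

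Txn2, the mitochondrial thioredoxin that feeds PRDX3 and PRDX5 with electrons (chr15:77915051-77928994), ranged from 0 to 707, 0 to 1223 and 0 to 1129 CPM, with medians of 39.1, 147 and 224. It had counts in 66.7%, 93.1% and 85.4% of cells. Pooled levels were 148, 389 and 309 CPM, and the P1 level was 2.09-fold above E9.5 (log2 ratio 1.07), with a log2 ratio of 0.64 against set C alone. With a minimum of 3000 genes per cell it was 0.87, and in TPM 0.98, under the 2-fold limit. Here 1 cell supplied 47.98% of the E12.5 counts, and the level without it was 239 CPM.

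Gpx1, the abundant cytosolic and mitochondrial glutathione peroxidase (chr9:108339080-108340342), had close cell medians of 382, 349.97 and 274 CPM at the 3 stages, with ranges of 0 to 2460, 0.389 to 2225 and 0 to 1143. Pooled levels were further apart, at 725, 926 and 332 CPM, and the N530 and N523 cells, at 746 and 1055 CPM, lay above set C. From E9.5 through E12.5 to P1 the set C levels were 353, 331 and 332 CPM, with counting intervals that overlapped (log2 ratios of P1 of -0.09 and 0.01). The count of Gpx1 as lower at P1 than at E9.5 (log2 ratio -1.13) therefore rests on set N530.

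Gpx4, which removes lipid hydroperoxides from membranes (chr10:80047166-80056439), had cell medians of 241, 251 and 357 CPM and pooled levels of 293, 214 and 346 CPM. It was detected in 42 of 42, 29 of 29 and 40 of 41 cells. Its annotated transcripts share 29.0% of their stretches of 75 bases, the read length, with a transcript of the pseudogene Gpx4-ps2, so its reads can be split between copies. Sod1, the copper and zinc dismutase of the cytosol (chr16:90220762-90226333), had medians of 1865, 2391 and 1603 CPM with cell ranges of 0 to 4909, 357 to 5713 and 466 to 3850. P1 was 1.17-fold above E9.5 and 1.41-fold below E12.5 in pooled level, and the former turned to a log2 ratio of -0.65 within set C.

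Cat, the peroxisomal catalase (chr2:103453904-103485153), was the member found in the fewest cells at E12.5 and the most uneven one there. It had counts in 31 of 42, 21 of 29 and 32 of 41 cells, with medians of 47.8, 7.03 and 75.6 CPM and highest cells at 749, 1174 and 950.2 CPM. Pooled levels were 129, 239.6 and 209 CPM, but 1 E12.5 cell held 49.8% of that stage's counts and the level without it was 134 CPM. Prdx1, the main cytosolic peroxiredoxin (chr4:116685599-116700000), had close levels at the 3 stages. It ranged from 0 to 4602, 229 to 2381 and 30.5 to 2581 CPM, its medians were 916, 1083 and 1016 CPM, its pooled levels 1059, 1024 and 1071 CPM, and it had counts in every E12.5 and P1 cell. P1 and E9.5 differed by a log2 ratio of 0.02 with a counting interval of -0.02 to 0.05.

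Compared with E12.5, no member was higher at P1, where 21.7% of all genes were, and 1 (Gpx3) was lower, where 23.1% of all genes were. With cell medians, however, Cat (log2 ratio 3.43), Prdx3 (1.36) and Prdx5 (2.34) were counted as higher at P1, and within set C Prdx5 was (1.65), while the pooled ratios were -0.20 for Cat, 0.01 for Prdx3 and -0.37 for Prdx5. Gpx1 had a log2 ratio of -1.48 but was not counted, as it was 0.01 within set C. It was counted as lower, making 2 members, without the P1 cell with endothelial markers (chosen after seeing the data) or without the cell with most counts at each stage. Gpx3 was not counted with set C at both stages, or with every cell thinned to 100000 counts, where its log2 ratio was -0.99. The median log2 ratio was -0.26 over the members and -0.02 over all genes. From E9.5 to E12.5, 2 members were higher at E12.5 (Sod2 with a log2 ratio of 2.06, over naming sets 0.65 to 2.29, and Prdx3 with 1.23, over naming sets 0.10 to 1.39), where 9.1% of all genes were, and none was lower, where 20% of all genes were. Within set C neither was counted, with 564 and 971 CPM for Sod2 (log2 ratio 0.79) and 224 and 240.3 CPM for Prdx3, and Prdx5 was counted in their place (3.61). Without the cell with most counts at each stage the ratio of Prdx3 was 0.93, under the limit. Prdx5 (2.07) and Txn2 (1.40) also passed 2-fold between these stages, but the sign was not the same in every combination of naming sets. With TMM scaling 6 members were higher at E12.5, Sod1, Cat, Prdx5 and Txn2 beside the 2 named. Higher genes made up 31.3% of all calls in that comparison with totals as the scale and 56.3% with TMM, and 48.5% and 37.7% for P1 to E12.5. The comparisons share stages, so they are not independent of each other.

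**Figure D2:**
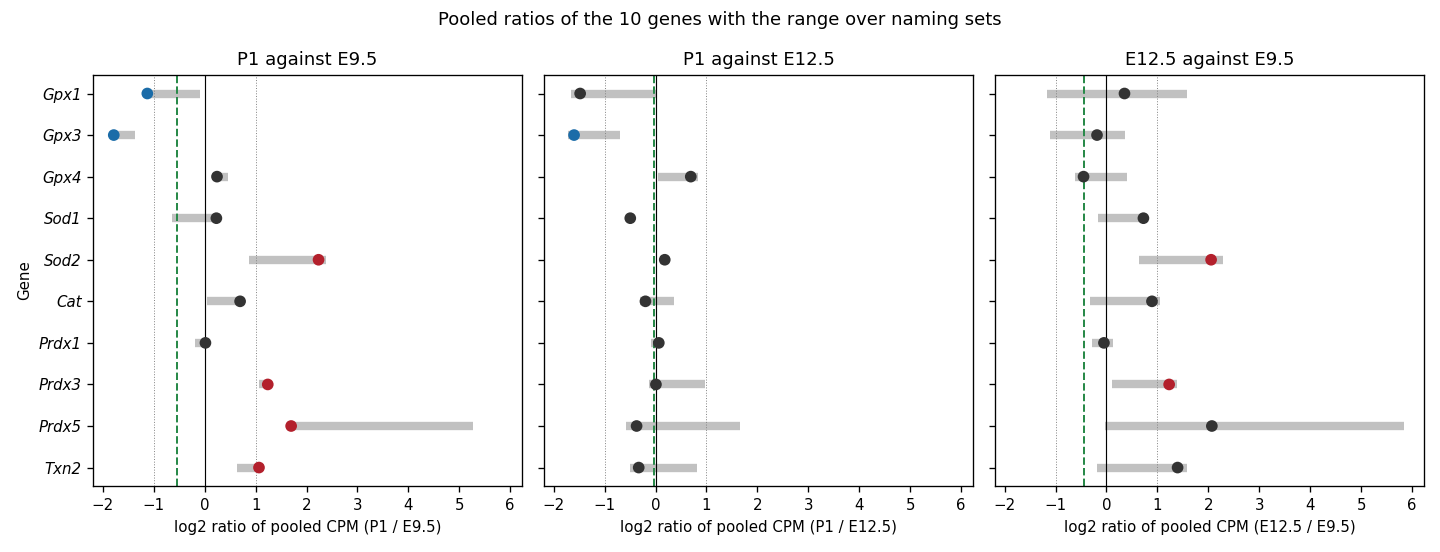
Log2 ratio of pooled CPM for each gene (points) in the 3 comparisons, with the range over combinations of naming sets (grey bars), the 2-fold limits (dotted) and the median of all 7971 genes tested (green dashes). Red points were counted as higher and blue points as lower. Sod2, Prdx3, Prdx5 and Txn2 lie right of the limit for both P1 and E12.5 against E9.5. Gpx1 and Gpx3 lie left of it for P1 against both embryonic stages. Points past a limit that are neither red nor blue changed sign between naming sets.

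Per unit of gene length, Sod1 was the leading member at every stage. In deposited TPM its mean over cells was 5856 ± 4053 (SD, n = 42) for E9.5, 7618 ± 3262 (n = 29) for E12.5 and 4959 ± 2324 (n = 41) for P1. It was the highest of the 10 in 25 of 42, 27 of 29 and 35 of 41 cells. Gpx3 was second in mean TPM at E9.5 (3237 ± 2322) and E12.5 (1695 ± 1408) and came after Prdx1 at P1, with 756 ± 1712 TPM against 1246 ± 722 TPM. Cat was last at each stage, with 111, 117 and 125 TPM. Sod1 exceeded the next member by more than 1 SD over cells at E12.5 and P1, and every other pair of neighbours in the order, including Sod1 and Gpx3 at E9.5, lay within 1 SD of the higher one.

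The summed level of the 10 genes was 6828 CPM in E9.5 cells, 9164 CPM in E12.5 cells and 6522 CPM in P1 cells. Within that sum, Sod2, Prdx3, Prdx5 and Txn2, whose products are found in mitochondria and which are also the 4 members counted as higher at P1 than at E9.5, went from 623 to 2006 and 1996 CPM. With Gpx1, which is mitochondrial in part and was counted as lower, the sums were 1347, 2933 and 2328 CPM (a choice made after seeing the data). In set C alone the sum of the 4 was 990.3 CPM for E9.5 cells and 1446 CPM for E12.5 cells, so that it was highest at P1. Per cell the sum of the 4 had medians of 503, 1557 and 1991 CPM, with lowest cells at 0, 589 and 693 CPM. A reference list of 23 mitochondrial genes (respiration, citrate cycle, porins, protein import, chaperones and prohibitins) went from 13281 to 20630.2 and 32264 CPM over the same stages, and 14 of its 23 genes were higher and 0 lower at P1 than at E9.5 (16% and 34% of all genes). Relative to that list, the 4 antioxidant genes amounted to 4.69%, 9.73% and 6.19%. In set C the share was 9.97% for E9.5 and 8.81% for E12.5, so against E9.5 the P1 share lay above that of set N530 (4.46%) and below that of set C.

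At P1 the Gpx3 transcript was concentrated in few cells. Sln (sarcolipin, a regulator of the calcium pump) and Nppa (atrial natriuretic peptide) mark atrial cardiomyocytes after birth, and Myl2 encodes the ventricular regulatory myosin light chain. Of the 41 P1 cells, 6 had Sln at 100 CPM or more, from 1351 to 6034 CPM, and these were also the 6 cells with the most Gpx3. Their Gpx3 levels were 2190.4, 2552, 4431, 4749, 5619 and 5898 CPM. The next cell had 604 CPM, so the groups did not overlap. A single cell lay near the limit from below, at 74.8 CPM of Sln. In the other 35 cells the median was 11.8 CPM, and 21 of the 35 (60%, interval 42.1 to 76.1) had counts. Pooled Gpx3 was 4153 CPM (4028 to 4281) in the 6 cells and 99.9 CPM (92.0 to 108) in the 35, a log2 ratio of 5.38. The 6 cells, 14.6% of the P1 cells, held 87.8% of the Gpx3 counts.

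Depth was alike on both sides. Median totals were 149378 counts in the 6 cells and 147920 in the 35, and over all P1 cells the rank correlation of Gpx3 with the total was 0.15. Other atrial genes moved with it: leaving out Sln and Nppa, the remaining 4 of the 6 listed atrial markers summed to between 7804 and 27586 CPM in the 6 cells and between 0 and 1327 CPM in the 35. Myl7, the atrial regulatory light chain, ranged from 6399 to 23043 CPM in the 6 cells and reached 1117 CPM in the 35. Nr2f2, a transcription factor of atrial identity, had counts in 6 of the 6 cells, at up to 166 CPM, and in 1 of the 35, the cell with endothelial markers, at 1298 CPM, while Kcnj3, an atrial potassium channel gene, was at 0 in all but 1 cell on each side. The 5 ventricular markers summed to between 370.3 and 11032 CPM in the 6 cells and between 9.72 and 23951 CPM in the 35, where the lowest was the cell with endothelial markers. Without it, a choice made after seeing the data, the other 34 lay between 12255 and 23951 CPM, above all 6. Myl2 had a median of 417 CPM and a highest cell at 4718 CPM among the 6, against a median of 7356 CPM in the 35. Hey2 was at 0 in all 6 cells and had counts in 12 of the 35. No cell label gives a chamber, so these cells are described by their transcripts alone.

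Compared with the embryonic stages, the P1 cells on either side of the Sln limit differed in direction. The 35 cells below it had 24.1-fold less Gpx3 than E9.5 (log2 ratio -4.59, over naming sets -4.61 to -4.17) and 21.2-fold less than E12.5 (-4.40, over naming sets -4.53 to -3.51). The 6 cells above it had 1.73-fold more than E9.5 (log2 ratio 0.79, over naming sets 0.77 to 1.21) and 1.96-fold more than E12.5 (0.97, over naming sets 0.84 to 1.87). At E9.5 no cell had a count of Sln, and Gpx3 was nevertheless found in all 42. At E12.5, 3 cells had Sln at 100 CPM or more, with Gpx3 at 1849, 2077 and 4989 CPM. The other 26 cells ranged from 58.9 to 4594 CPM, so the groups overlapped there.

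**Figure D3:**
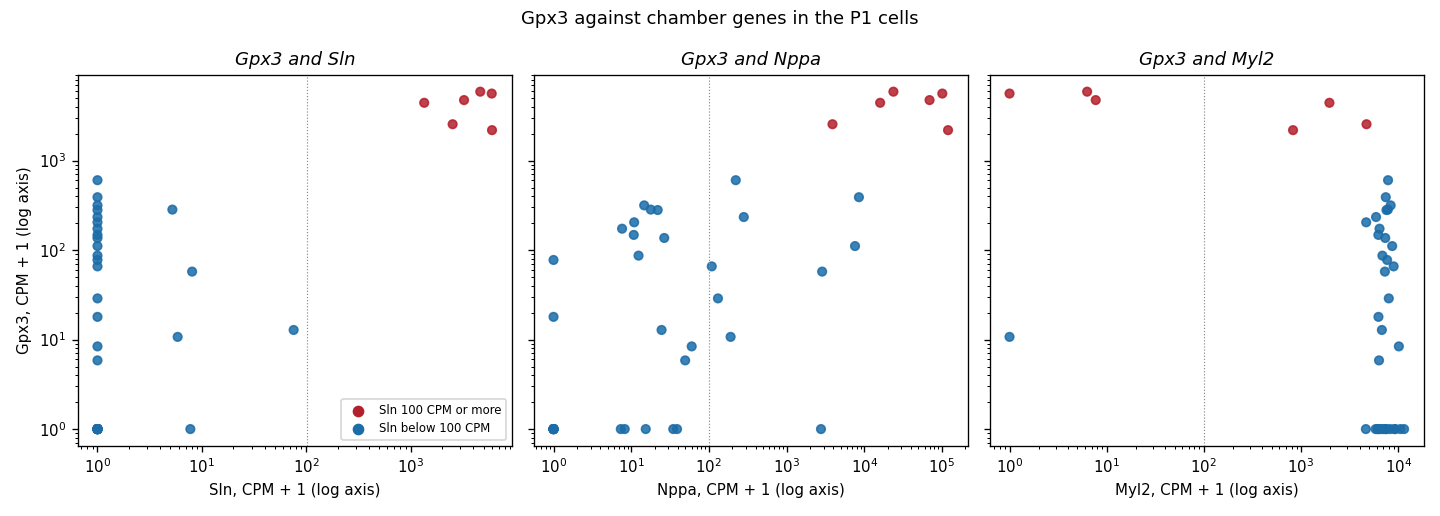
Gpx3 against Sln, Nppa and Myl2 in the 41 P1 cells (CPM + 1, log axes), with the 6 cells at 100 CPM of Sln or more in red, the other 35 in blue and the 100 CPM limit dotted. The red cells occupy the top of each panel, between 2190.4 and 5898 CPM of Gpx3, and the highest blue cell has 604 CPM.

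Across the 41 P1 cells, as a description over cells that share 1 sample and fall into 2 groups, Gpx3 had Pearson's r of 0.65 and Spearman's rho of 0.51 with Sln, 0.71 and 0.66 with Nppa, and -0.44 and -0.36 with Myl2, with r taken on log2(CPM + 1). Sln had counts in only 11 of the cells. Without the 2 cells farthest from the median of the other gene, rho was 0.40 for Sln, 0.61 for Nppa and -0.34 for Myl2. Among the 35 cells below the Sln limit alone, rho with Nppa was 0.45 and with Myl2 0.00. Split at 100 CPM of Nppa, 15 cells had pooled Gpx3 of 1734 CPM and 26 cells 68.4 CPM, with ranges that overlapped. In 4 cells Nppa was between 2779 and 8556 CPM while Sln was below the limit, and their Gpx3 lay between 0 and 389 CPM, below all 6 Sln cells. Split at 100 CPM of Myl2, 37 cells had 342 CPM and 4 cells 3844 CPM, of which 1 was the cell with endothelial markers, at 9.72 CPM of Gpx3.

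Among the 4180 genes found in 25% or more of the P1 cells, ranked by rho with Gpx3, Nppa (0.66) had rank 1 and Sln (0.51) rank 4. Between them stood Nbea (0.53), which encodes a scaffold protein of membrane traffic, and Myl1 (0.51), which encodes an alkali myosin light chain, and Pbxip1 (0.50) followed. At the other end were Las1l (-0.56), Dicer1 (-0.52), which encodes the enzyme that cuts microRNA precursors, and Gtf2a2 (-0.51), which encodes a subunit of a general transcription factor. Ranks among 4180 genes over 41 cells are given without a test.

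The other 9 members differed less on the Sln split. Between the 6 and the 35 P1 cells the log2 ratios of the pooled level ran from -1.41 (Cat) over -0.74 (Prdx5), -0.62 (Sod2) and -0.55 (Gpx1) to 0.43 (Txn2), with the remaining 4 between -0.38 and 0.00. Split at 100 CPM of Myl2, however, Cat had 231 CPM in the 37 cells and 10.1 CPM in the 4 (log2 ratio 4.52, against -3.49 for Gpx3), and Sod2 had 1115 and 304 CPM (1.87). The other 7 members lay between -0.49 and 0.93 on that split. For Sod1 the 6 Sln cells ranged from 1248 to 2190.4 CPM, inside the range of the 35 (466 to 3850 CPM). Leaving out the 6 cells, an alternative chosen after seeing the data, changed 1 call between P1 and E9.5: Txn2 had a log2 ratio of 0.99 in place of 1.07, just under the limit.

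Other genes of the antioxidant pathways, taken as whole lists, varied in both directions. Of 11 glutathione S-transferases tested, which conjugate glutathione to electrophiles, 7 were higher and 1 lower at P1 than at E9.5 (16% and 34% of all genes), with a median log2 ratio of 1.28. Mgst3 had pooled levels of 68.7, 264 and 255 CPM at the 3 stages, Gstp1 83.7, 89.6 and 289 CPM, and Gsta4 82.8, 301 and 201 CPM. Against E9.5 the log2 ratios over naming sets were 1.86 to 2.59 for Mgst3, 0.70 to 1.89 for Gstp1 and 0.72 to 1.32 for Gsta4, so the latter pair were under 2-fold in 1 set. Against E12.5 they were -0.26 to 1.96, 0.27 to 2.28 and -0.76 to 0.76, so that the order of E12.5 and P1 turned with the set for Mgst3 and Gsta4. Gstm1 was at 179 CPM at P1 after 7.13 and 9.06 CPM, with log2 ratios of P1 to E9.5 from 1.31 to 5.76 over naming sets. Gstt1 had no count at P1 after 21.5 CPM in 7 of 42 E9.5 cells and 23.7 CPM in 2 of 29 E12.5 cells. A limit of 3 counts over the P1 cells made it 48.8-fold lower than at E9.5, which does not cover the spread between cells. Against E12.5, 3 of the 11 were higher and 1 lower, where 21.7% and 23.1% of all genes were.

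In the thioredoxin system, 5 of 10 tested genes were higher and 2 lower at P1 than at E9.5, where 16% and 34% of all genes were. Txnip, the inhibitor of thioredoxin, was at 56.1, 327 and 276 CPM, with log2 ratios of P1 to E12.5 from -0.50 to 3.06 over naming sets, and the methionine sulfoxide reductases Msrb3 and Msrb2 were at 162 and 83.3 CPM at P1 after 21.7 and 20.9 CPM at E9.5. Msra, another reductase of this kind, was instead lower than at E9.5, at 66.9, 29.2 and 29.3 CPM, although within 2-fold in 1 E9.5 set (log2 ratio -0.17). Txnrd1, the cytosolic thioredoxin reductase that recycles thioredoxin, went from 52.4 to 12.6 CPM. Txnrd2, its mitochondrial counterpart and the partner of TXN2, had 61.6, 21.7 and 4.84 CPM and was found in 8, 7 and 5 cells. It was counted as lower than at E12.5, while against E9.5 its naming sets disagreed in sign (log2 ratios of P1 from -3.75 to 4.76). Among the glutathione enzymes (7 tested, 2 higher and 3 lower), the glutaredoxin gene Glrx went from 33.8 to 178 CPM and Glrx2 from 3.20 to 42.8 CPM, with log2 ratios from 0.28 to 5.02 over naming sets for the latter. Another glutaredoxin gene, Glrx3, was lower at P1 than at both embryonic stages, at 23.1, 59.1 and 5.57 CPM. Gclc, of the first step of glutathione synthesis, went from 33.5 CPM in 11 of 42 E9.5 cells to 4.69 CPM in 3 of 41 P1 cells. At E12.5 it had only 7 counts in 2 of 29 cells (0.139 CPM). It was counted as higher at P1 than at E12.5, but both levels lay under 10 CPM, and it passed the minimum through E9.5. Slc7a11, the cystine importer, went from 29.8 CPM in 38 of 42 cells to 1 count in 1 P1 cell.

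**Figure D4:**
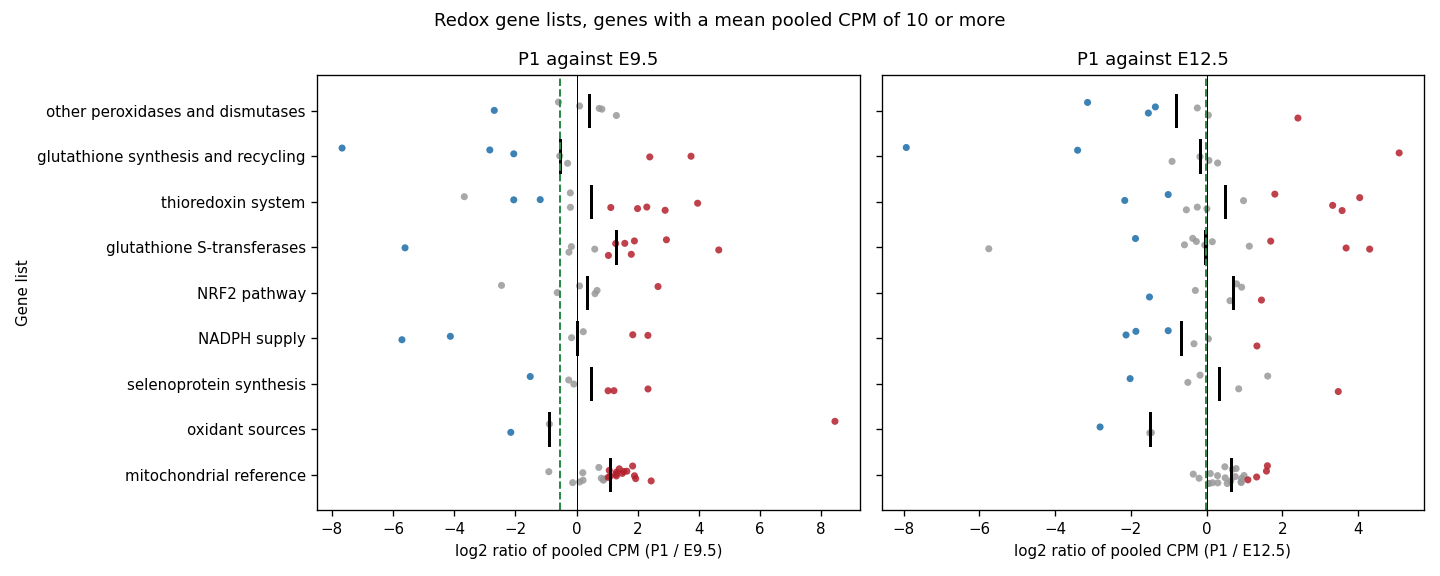
Log2 ratio of pooled CPM for the genes of 9 redox and mitochondrial lists with a mean pooled level of 10 CPM or more, P1 against E9.5 (left) and against E12.5 (right), with genes counted as higher in red, as lower in blue, others in grey, list medians as black bars and the median of all genes as green dashes. The mitochondrial reference and the glutathione S-transferases have the highest medians against E9.5, at 1.09 and 1.28.

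The 6 tested genes of NADPH supply, which powers both the glutathione and the thioredoxin branch, gave 2 higher and 2 lower between P1 and E9.5 (16% and 34% of all genes). The mitochondrial enzymes Idh2 (303, 1481 and 1529 CPM over the 3 stages, so already high at E12.5) and Nnt (135, 193 and 484 CPM) were higher, while Pgd of the cytosolic pentose phosphate pathway (146 to 2.79 CPM) and Me2, a mitochondrial malic enzyme (46.1 to 2.64 CPM), were lower. Of the 6 NRF2 pathway genes tested, 1 was higher and 0 lower, namely Fth1, the heavy chain of the iron store ferritin, at 509.5, 1185 and 3228 CPM in the 3 stages. Its light chain gene Ftl1 was instead lower at P1 (554 CPM) than at E12.5 (1578 CPM). Of the other 6 peroxidases and dismutases tested, only Prdx4, the peroxiredoxin of the endoplasmic reticulum, was counted between P1 and E9.5, at 288, 129.6 and 44.6 CPM, and Prdx6, with 279 CPM at P1, was counted as lower than at E12.5 (714 CPM), with log2 ratios from -1.51 against set N523 to -0.24 against set C.

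A list of selenium supply and selenoprotein synthesis, on which Gpx1, Gpx3 and Gpx4 depend, also held the selenoprotein gene Sepw1. Of its 6 tested genes, 3 were higher and 1 lower at P1 than at E9.5 (16% and 34% of all genes). Sepp1, the plasma selenium carrier, was at 22.8, 162 and 115 CPM, Pstk, which acts in selenocysteine synthesis, at 23.97, 27.2 and 48.98 CPM, and Secisbp2, which reads the selenocysteine signal, at 16.4, 3.44 and 38.3 CPM in at most 15 cells of a stage. Sepw1, a small selenoprotein of muscle, was lower, at 509.7, 724 and 178 CPM. Secisbp2 and Sepw1 were each within 2-fold of P1 in 1 of the E9.5 sets (log2 ratios 0.03 and -0.46). Among oxidant sources, 3 genes could be tested. Maob, a monoamine oxidase of mitochondria, was found in 2, 3 and 4 cells at pooled levels of 0.0495, 48.99 and 17.3 CPM, and was counted as higher at P1 than at E9.5, with most of its P1 counts in 1 cell at 479 CPM, and Maoa, which encodes the A form, was lower at P1 (14.4 CPM, all from 1 cell) than at E9.5 (63.8 CPM) and E12.5 (101 CPM).

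Markers of other cells were summed per cell at each stage too. In E9.5 cells the 7 endothelial markers summed to between 0 and 1960 CPM and the 7 fibroblast markers to between 0 and 4007 CPM. Each sum was 0 in 19 of the 42 cells, and the medians were only 1.66 and 0.297 CPM. At E12.5 the endothelial sum was 0 in 27 of 29 cells and the fibroblast sum in 18 of 29. At P1 the endothelial sum was 0 in 38 of 41 cells and the fibroblast sum in 40 of 41. Sums as low as the E9.5 medians would be missed in most P1 cells, which had the lowest depth (median total 149078 counts). The shares of cells at 0 therefore do not compare the stages. Smooth muscle genes, which embryonic cardiomyocytes also express, had medians of 4373, 2430.2 and 1110.1 CPM. Keeping only the cells in which 8 or more cardiomyocyte genes had counts left 39 of the 42 E9.5 cells. Every E12.5 and P1 cell stayed in, also the P1 cell with endothelial markers. Against E9.5 the counts of higher and lower members were as above. Between P1 and E12.5 the cells were unchanged, so that comparison could not differ.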

How the data were processed

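Single αMHC-GFP+ cells were amplified with SMART-Seq V4 and sequenced as single reads of 75 bases. The authors aligned reads with OLego and deposited featureCounts read counts for each gene symbol. They also deposited TPM, made from those counts by their own scripts and linear in the file. The submitters' processing notes name GRCm38 and mm10.

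The members and gene lists were chosen with earlier results of these data known. Cells with 2000 or more genes were kept. Pooled CPM carry exact Poisson intervals and shares exact binomial (Clopper-Pearson) intervals, at 95%. Where all cells of a stage lacked a gene, 3 counts served as its upper limit. With 1 sample per stage no p-value was computed, and differences are judged by the range over naming sets of at least 6 cells. Gene lists (181 of 183 genes matched, 3 by older symbols) contribute at most 3 called genes per direction with the highest mean CPM, in P1 against E9.5 and against E12.5. Trmt112 was added for its overlap with Prdx5. Genes like Gpx3 are the 5 highest and 3 lowest by rho. Total counts per kept cell ran from 69522 to 7711355. No 2 cells had identical counts. TMM factors came from edgeR 4.0.16 (scaling only), and other steps from pandas 2.3.3 and scipy 1.17.1. The scripts were tested on simulated data. Alternatives were other minimums of genes, cell means and medians, thinning, TMM, TPM, single naming sets and left-out cells.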

Additional observations from a re-analysis of the deposited data

How the results depend on the processing

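Between P1 and E9.5 the 4 higher members numbered 2 with set C at every stage and 3, without Txn2, with a minimum of 3000 genes, with TPM or, chosen after seeing the data, with only the P1 cells below 100 CPM of Sln, and the 2 lower members numbered 1 with cell means, cell medians, thinned cells, TMM or set C. Between P1 and E12.5 the 1 lower member numbered 2 with a minimum of 3000 genes, TMM, sets N530 and N523 for the embryo, titles ending in no left out, or without the cell with most counts, and, chosen after seeing the data, without the P1 cell with endothelial markers, the second being Gpx1 each time. It numbered 0 with thinned cells or set C, where Gpx3 fell short of 2-fold. Higher members there numbered 3 with cell medians (Cat, Prdx3 and Prdx5) and 1 with set C (Prdx5), against 0. From E9.5 to E12.5 the 2 higher members numbered 1 with a minimum of 3000 genes or with TPM (Sod2), 1 with set C (Prdx5, with Sod2 at 0.79 and Prdx3 at 0.10), 6 with TMM, and 5 with sets N530 and N523. Prdx3 gave way to Prdx5 there with cell means, cell medians, thinned cells, or without the cell with most counts. None of the members called in the report changed sign in its comparison. Against E12.5, Cat and Prdx5 were higher with cell medians (log2 ratios 3.43 and 2.34) but not in the report (-0.20 and -0.37). Between P1 and E9.5 Prdx5 had a higher ratio than Sod2 with cell means, cell medians, thinned cells, TPM or set C. The rank correlation (Spearman) of Gpx3 with Sln was 0.39 with a minimum of 1000 genes (52 cells) and 0.40 without the 2 farthest cells, and with Myl2 -0.48 when thinned and -0.49 with a minimum of 3000 genes (18 cells). The other 20 values moved by less than 0.1.

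Over all genes tested, the calls higher at P1 than at E9.5 went from 1279 to 631 with cell medians, to 851 with TPM and to 2540 without the minimum of 10 CPM. For P1 to E12.5 they went from 1731 to 429, 866 and 3412, and to 2904 with sets N530 and N523. Calls lower at P1 went from 2709 to 866 (E9.5) and from 1839 to 864 (E12.5) with cell medians. From E9.5 to E12.5 the 725 higher calls were 353 with cell medians, 1284 with TMM, 473 with TPM, 1678 with set C and 1724 with sets N530 and N523, and the 1592 lower calls were 236 with cell medians, 995 with TMM, 3474 with sets N530 and N523 and 2594 without the minimum. The cause of these moves was not tested. The depth of each cell limits the shares at P1, where kept cells had totals of 69522 to 327360 counts (median 149078). Over the summed P1 counts, 1 count is 0.147 pooled CPM.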

Other observations

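The 10 genes moved together weakly or not at all from cell to cell. Over the 45 pairs of members the median Spearman rho was 0.16 at E9.5 (42 cells), 0.06 at E12.5 (29 cells) and 0.03 at P1 (41 cells), and 0.13, 0.05 and 0.02 after thinning to 100000 counts. Within E9.5 it was 0.17 in set C (0.28 thinned) and 0.22 in set N530 (0.21 thinned), and within the E12.5 sets at most 0.07. In CPM the highest pair was Sod1 with Cat at E9.5 (0.62), Sod2 with Prdx1 at E12.5 (0.45) and Gpx4 with Cat at P1 (0.49), over cells of all naming sets. After thinning it was Sod1 with Cat at E9.5 (0.66), Sod1 with Prdx5 at E12.5 (0.46) and Gpx1 with Cat at P1 (0.43). Within the E9.5 sets other pairs were highest, Sod2 with Txn2 in set C (0.69) and Cat with Txn2 in set N530 (0.71), and both Sod1 and Cat had higher pooled levels in set C than in set N530. Over all cells Gpx3 with Prdx1 was the lowest pair in CPM, with a rho of -0.33 for E9.5 and -0.44 for E12.5. Within each embryonic set the lowest pair in CPM was another one. After thinning it was Gpx3 with Prdx1 over all E9.5 cells (-0.31), in set N530 (-0.43) and in set N523 (-0.76, 8 cells). It was another one in set C at both stages and over all E12.5 cells (Gpx3 with Txn2, -0.44). At P1, with 1 set, the lowest pair was Sod1 with Txn2 (-0.43).

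Before birth, rho of Gpx3 with the chamber genes varied with the naming set. At E9.5 it was -0.05 with Nppa and 0.31 with Myl2 over all cells, -0.42 and 0.16 in set N530 (28 cells), and 0.37 and 0.50 in set C (14 cells). At E12.5 the signs were those of P1, with 0.25 for Nppa, -0.26 for Myl2 and 0.39 for Sln, which had counts in 8 of 29 cells, although Nppa was at -0.10 within set C. The 22 E12.5 cells at 100 CPM of Myl2 or more had pooled Gpx3 of 2044 CPM and the 7 below it 2552 CPM, against 342 and 3844 CPM on the same sides at P1. These are values of cells within 1 sample per stage, and the difference between the stages was not tested.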
